A study of Mus musculus with 6 samples.

Results

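Rab GTPases and SNARE proteins were described in the translated mRNA of choroid plexus (ChP) at 2 ages. Members were all rows whose symbol is Rab, Vamp or Stx followed by a number, with at most 1 letter after it for Rab and Stx, or Snap23, Snap25, Snap29 or Snap47. They came to 85 of the 24354 genes in the table, 59 Rab genes and 26 SNARE genes. Translating ribosome affinity purification (TRAP) pulls down ribosomes carrying a tagged subunit with the mRNA on them, and here the subunit was L10a, tagged with EGFP (the bacTRAP allele). All 6 mouse samples carried FoxJ1:cre together with this allele, 3 from adults of 60 days (P60) and 3 from embryos at embryonic day 16.5 (E16.5), and no treatment is named in the labels. Cells without Foxj1-driven Cre recombinase do not switch the tag on. Whether a replicate stands for 1 animal or for a pool is described differently in the sources, so that p-values measure only the spread between these samples.

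Rab proteins are small GTPases that mark the membranes of each compartment when GTP is bound, and there they recruit motors, tethers and other effectors. SNARE proteins then fuse the vesicle with its target: a vesicle SNARE, often of the VAMP family, zips together with syntaxins and a member of the SNAP25 family into a bundle that brings the membranes together. In ChP, an epithelium with a brush border that faces the cerebrospinal fluid, this machinery carries transporters and receptors to the apical and basolateral surfaces, retrieves them by endocytosis, and releases secreted proteins.

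Levels are given in FPKM, which count fragments per transcript kilobase and relative to all mapped fragments, and values listed without a sample name follow the order of replicates 1, 2 and 3. Changes are adult minus E16.5 on the log2(FPKM + 1) scale, tested with limma over the 11601 genes with a mean FPKM above 1, with Benjamini-Hochberg adjustment and a threshold of 0.05. A single read in a kilobase was worth 0.114 to 0.323 FPKM in the adult samples and 0.0636 to 0.0807 FPKM in the E16.5 samples, so that the adult libraries, replicate 3 above all, were shallower. Between 7599 and 11340 genes were above 0 in an adult sample and between 12761 and 13077 in an E16.5 sample. A microRNA gene, Mir6236, took 32.7% to 51.7% of the summed FPKM in adults and 13.3% to 15.0% at E16.5, and the median change of all genes tested was −0.86. Of 8 markers of ChP epithelium, 7 were above 0 in every sample, and Ttr was listed at 0 in all E16.5 samples. The 8 summed to 38600 to 53360 FPKM in adults and 2513 to 2826 FPKM at E16.5. Of the adult sums, Ttr alone gave 20922, 31302 and 29741 FPKM. Its zeros at E16.5 can be failed estimates of the quantification, which was not tested. In the limma test 4 of the 8 markers were called higher in adults (Ttr, Kl, Kcnj13 and Enpp2) and 1 lower (Otx2). The summed FPKM of 6 motile cilia markers was 165.5 to 358.8 in adults and 770.8 to 1040 at E16.5, and Foxj1, whose promoter drives the Cre, fell by 1.93 (limma adjusted p = 0.013). Markers of red blood cells summed to 0 to 6.49 FPKM in adults and 54.1 to 323.8 at E16.5, and those of mesenchyme and fibroblasts to 13.3 to 21.9 and 57.7 to 69.3. Their part in the results was not tested, and fewer cells of a type and less RNA per cell cannot be told apart in bulk samples.

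Of the 85 members, 66 had a mean above 1 FPKM and were tested, 44 Rab and 22 SNARE genes. Another 12 were above 0 in some sample but below that mean, with means of at most 1.47 FPKM in adults and 1.96 FPKM at E16.5, namely Rab3c, Rab7b, Rab9b, Rab26, Rab27b, Rab30, Rab32, Rab33a, Rab38, Rab39, Rab42 and Vamp1. The last 7 were listed at 0 in every sample: Rab17, Rab25, Rab37, Rab44, Stx11, Stx19 and Vamp7. In limma's test 4 members fell from E16.5 to adult, namely Vamp3, Rab15, Rab29 and Rab1, which is 6.06% of the tested members against 8.83% of all genes tested. No member rose, where 2.12% of all genes did, and at an unadjusted p under 0.05 there were 1 higher and 18 lower members, where 5.34% and 25.9% of all genes tested were higher and lower. Without E16.5 replicate 2 no member passed (9 lower and 0 higher at an unadjusted p under 0.05), without E16.5 replicate 1, E16.5 replicate 3 or adult replicate 1 only Vamp3 did, and without adult replicates 2 and 3 the members called lower were 9 and 6. The adult values lay wholly below the E16.5 values in 19 members (28.8%, against 31.0% of all genes tested) and wholly above in 2 (3.03%, against 7.39%). The 45 others overlapped between the ages. The median change of the tested members was −1.01, which is 0.16 below the median of all genes tested and 0.16 to 0.27 below it under the 5 scalings tried. The shares of members called or without overlap were thus near or below those of all genes tested.

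**Figure D1:**
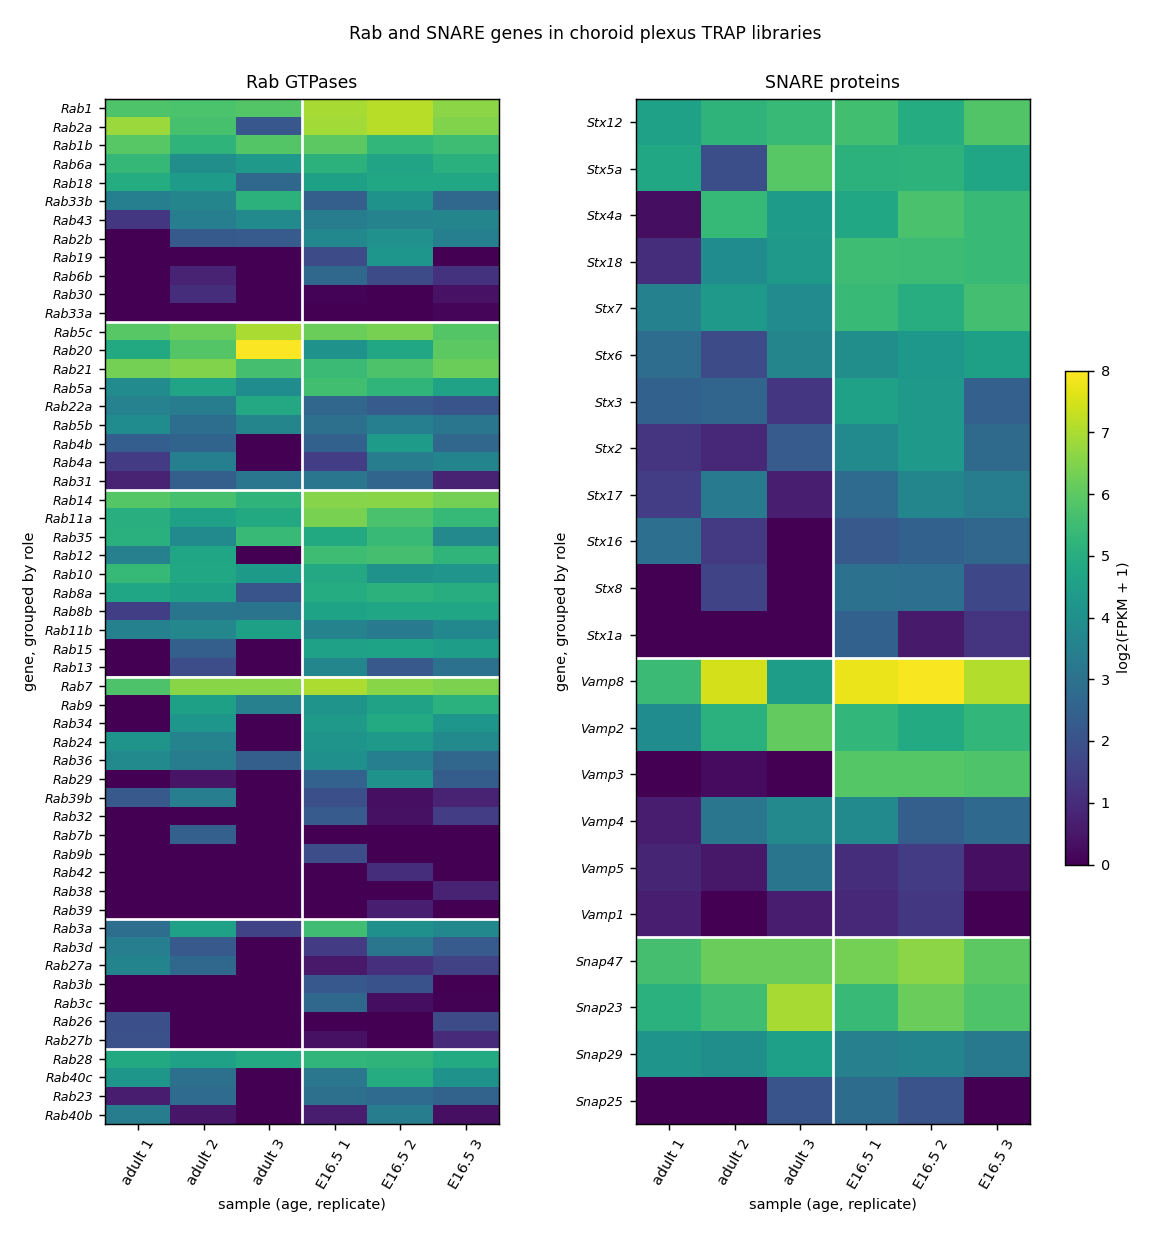
Level of 77 Rab and SNARE genes above 0 in any sample, as log2(FPKM + 1) in the 3 adult and 3 E16.5 samples, grouped by role. Bright cells mark high levels and dark cells low ones. The Vamp3 row is bright in all E16.5 samples and dark in all adult samples, while Rab7 is bright in all 6.

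Vamp3, also called cellubrevin, is a vesicle SNARE of recycling endosomes found in most tissues. It was listed at 0, 0.177 and 0 FPKM in the adult samples and at 59.0, 58.8 and 55.1 FPKM in the E16.5 samples. The E16.5 replicates lay within 4 FPKM of each other, and no adult sample came near them. The change was −5.79 ± 0.53 (SE; limma adjusted p = 0.0026), the largest among the tested members, and its rank by mean level among all 85 members went from 9 at E16.5 to 67 in adults. The gene lies on the minus strand of chromosome 4 (mm10, 151047300 to 151057963), and its shortest and longest coding transcripts are both 2120 bases. Of the 50-base stretches of all its transcripts, 5.14% occur in another gene. At the depth read from the low values, the E16.5 level would have given 431, 973 and 342 reads in adult replicates 1, 2 and 3, and the listed values correspond to 0, 3 and 0 reads. The adjusted p ranged from 0.000925 to 0.056 over the limma alternatives, and was under 0.05 in 16 of 17, the exception being the fit without E16.5 replicate 2. An FPKM listed as exactly 0 can be a failed estimate of the quantification, which was not tested here.

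Its closest relative, Vamp2 (synaptobrevin 2), serves exocytosis in neurons and in many other cells. Its levels were 13.9, 33.7 and 66.4 FPKM in adults and 38.6, 28.8 and 38.0 FPKM at E16.5. These overlapped, with a change of −0.13 ± 0.56 (limma adjusted p = 0.884). Vamp2 therefore made up 100%, 99.5% and 100% of the summed Vamp2 and Vamp3 FPKM in the adult samples and 39.6%, 32.9% and 40.8% in the E16.5 samples. The adult mean was 62.1 percentage points higher, with no overlap, at the smallest p that an exact permutation test of 3 against 3 samples allows (two-sided p = 0.1; 0.333 adjusted over 10 families).

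**Figure D2:**
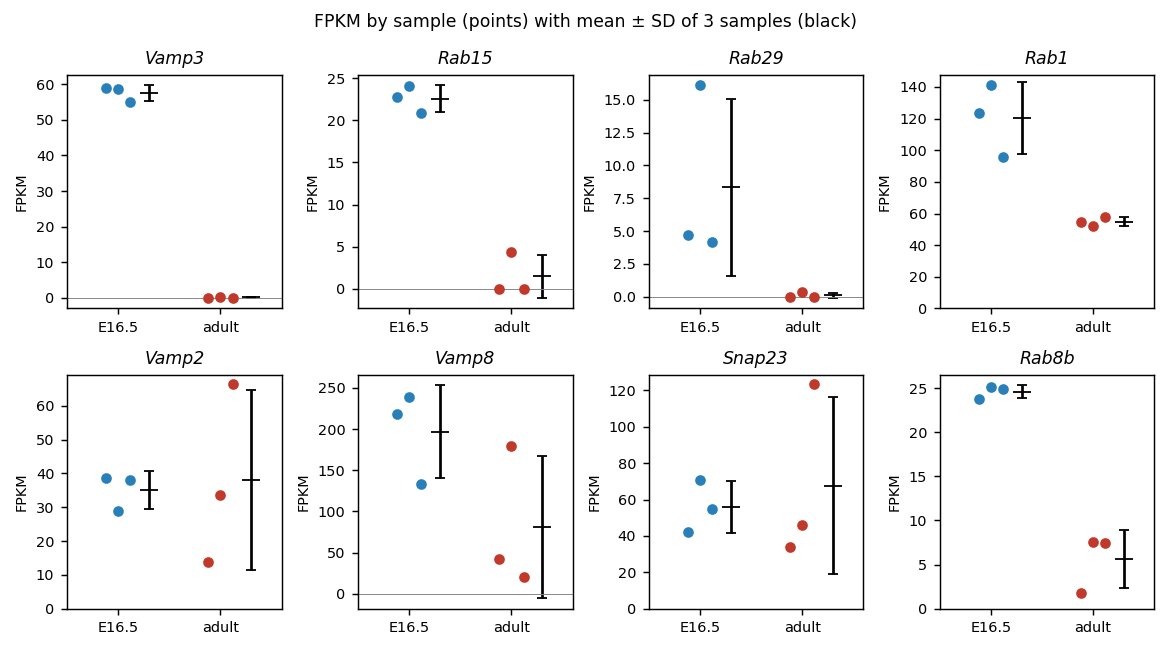
FPKM of Vamp3, Rab15, Rab29, Rab1, Vamp2, Vamp8, Snap23 and Rab8b in each sample, with the mean and SD of each age (n = 3). Vamp3 sits at or near 0 in every adult sample and between 55.1 and 59.0 in every E16.5 sample, while Vamp2 and Snap23 overlap between the ages.

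Vamp8 (endobrevin), the SNARE of late endosomes and of apical and granule exocytosis in epithelia, had the highest mean of all members at E16.5. It measured 218, 239 and 133 FPKM there and 42.9, 180 and 20.7 FPKM in adults. Adult replicate 2 lay within the E16.5 range and the other adult samples far below it, and the change of −1.78 ± 0.72 did not pass (limma adjusted p = 0.141), although it did in 2 of 17 alternatives. The remaining tested VAMP genes had lower levels than Vamp8 in every sample. Vamp4, which works at the trans-Golgi network, ranged from 0.548 to 12.6 FPKM in adults and from 4.37 to 12.8 FPKM at E16.5. Vamp5, first known from muscle, stayed between 0.254 and 7.58 FPKM over all samples. Vamp1 (synaptobrevin 1) had a mean under 1 FPKM at both ages and was not tested.

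Rab15, a GTPase of early and recycling endosomes, was listed at 0, 4.40 and 0 FPKM in adults against 22.7, 24.1 and 20.9 FPKM at E16.5. As for Vamp3, only adult replicate 2, the deepest of its age, was above 0, and all adult values lay below the E16.5 range. The gene fell by 3.75 ± 0.81 (limma adjusted p = 0.032). It lies on the minus strand of chromosome 12 (76797960 to 76822908). Rab29, which acts at the trans-Golgi network and lysosomes and recruits the kinase LRRK2, was listed at 0, 0.342 and 0 FPKM in adults and at 4.68, 16.1 and 4.19 FPKM at E16.5. E16.5 replicate 2 stood well above the other samples of its age, and every E16.5 value was above every adult value. It fell by 2.85 ± 0.70 (limma adjusted p = 0.043), and lies on the plus strand of chromosome 1 (131867224 to 131872887). For a library as deep as adult replicates 1, 2 and 3, the E16.5 mean of Rab15 would have given 24.3, 55.0 and 19.3 reads on its shortest coding transcript, and that of Rab29 32.5, 73.4 and 25.8 reads.

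Rab1 is listed under the older symbol of Rab1a, the GTPase that tethers vesicles from the endoplasmic reticulum (ER) to the Golgi. It differed from the other 3 in being abundant at both ages. It measured 54.9, 52.0 and 57.6 FPKM in adults and 124, 141 and 95.9 FPKM at E16.5. The adult replicates were within 6 FPKM of each other and all below the E16.5 samples, and the gene fell by 1.10 ± 0.28 (limma adjusted p = 0.046). Relative to the median change of all genes this left little, and the call was lost under median-ratio scaling (adjusted p = 0.127) and quantile normalization (adjusted p = 0.167). The calls of Rab15, Rab29 and Rab1 held in 8, 6 and 7 of 17 alternatives, and were lost for all 3 without any E16.5 replicate and without adult replicate 1. Rab1 lies on the plus strand of chromosome 11 (20201432 to 20226856). No 50-base stretch of the transcripts of these 3 Rab genes occurs in another gene.

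The 250 bases before the annotated start of the 3 Rab genes that fell are shown because they differ in base composition and in the boxes they hold, although the genes moved in 1 direction. The sequences are from RefSeq on GRCm38.p6, for Rab1a at chr11:20201162-20201411 on the plus strand, for Rab15 at chr12:76822525-76822774 on the minus strand (the first of 4 starts in the table), and for Rab29 at chr1:131867027-131867276 on the plus strand. Capitals mark GC boxes, the letters GGGCGG on either strand.
Rab1a: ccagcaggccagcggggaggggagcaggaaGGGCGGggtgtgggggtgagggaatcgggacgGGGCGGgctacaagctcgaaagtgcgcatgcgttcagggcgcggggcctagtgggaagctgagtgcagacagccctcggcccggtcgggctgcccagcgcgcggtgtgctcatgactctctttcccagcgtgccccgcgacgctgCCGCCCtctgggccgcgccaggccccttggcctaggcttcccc
Rab15: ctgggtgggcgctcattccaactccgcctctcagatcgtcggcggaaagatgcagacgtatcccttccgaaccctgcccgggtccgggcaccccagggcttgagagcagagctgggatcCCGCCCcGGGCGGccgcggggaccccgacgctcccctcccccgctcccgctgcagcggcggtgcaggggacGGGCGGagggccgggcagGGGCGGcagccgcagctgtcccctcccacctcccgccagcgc
Rab29: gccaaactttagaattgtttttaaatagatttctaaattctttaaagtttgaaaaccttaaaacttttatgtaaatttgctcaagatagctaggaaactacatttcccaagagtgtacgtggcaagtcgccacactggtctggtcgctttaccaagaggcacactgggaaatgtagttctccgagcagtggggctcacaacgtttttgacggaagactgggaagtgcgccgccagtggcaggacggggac
The windows of Rab1a and Rab15 were 72.4% and 75.2% G and C and held 3 and 4 GC boxes, some of them on the opposite strand. That of Rab29 was 44.0% G and C and held none. At least 1 GC box was found in 32.7% of all 32851 promoters of the table and in 65.2% of the 69 members searched. The median share of G and C was 52.4% over all promoters and 60.0% over these members. The sets are not alike, since members entered with 1 start per gene and all promoters with every listed start. The letters of 4 other boxes were searched on both strands and found in none of the 3 windows. An E-box was taken as CACGTG, and a CCAAT box as those letters. A cyclic AMP response element (CRE) was searched as TGACGTCA. For the TATA box the letters TATAAA were used. Over the promoters of members the shares with these 4, in this order, were 8.7%, 43.5%, 2.9% and 7.25%, and over all promoters 6.02%, 33.9%, 1.55% and 12.4%. A match is a description of letters and not of a bound factor.

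**Figure D3:**
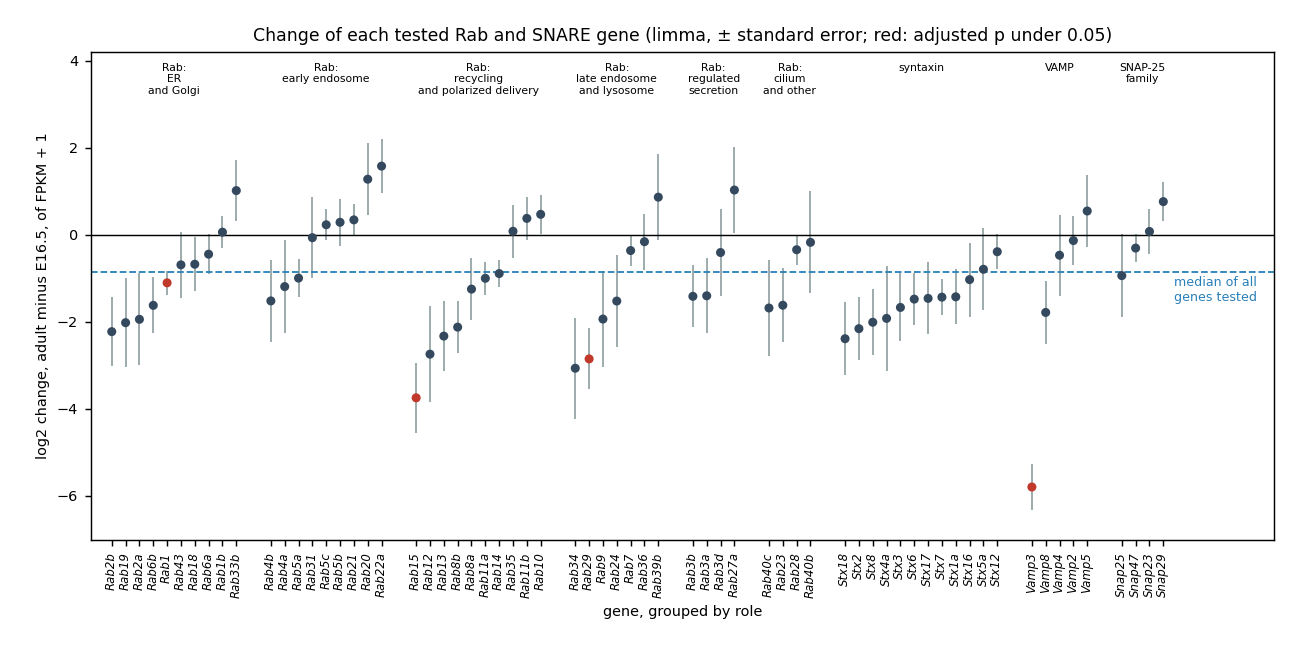
Change of 65 tested members, adult minus E16.5 on the log2(FPKM + 1) scale, with its standard error, grouped by role. Red points passed the limma test, and the dashed line is the median of all genes tested (−0.86). The 12 syntaxins shown all lie below 0, Stx1a among them, which was at 0 in every adult sample and could only fall. The median of the early endosome group lies above 0, though at −0.59 under scaling to the same sum of FPKM.

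Among the Rab genes of the ER and Golgi, 1 of the 10 tested fell (Rab1) and none rose, and the adult samples lay wholly below in 3 (30.0%, against 31.0% of all genes tested). Rab2a, which acts between the ER and Golgi and in granule formation, was among the 5 highest members at E16.5 with 118, 139 and 88.01 FPKM. In adults it measured 111, 50.5 and 3.52 FPKM. Adult replicate 1 was thus at the E16.5 level while replicate 3, the shallowest library, was far below it, and the change of −1.94 ± 1.06 did not pass (limma adjusted p = 0.246). Its relative Rab2b measured 0, 3.797 and 3.96 FPKM in adults and 12.4, 15.7 and 9.88 FPKM at E16.5, without overlap (change −2.22 ± 0.80, adjusted p = 0.109 with limma); 57.0% of its 50-base stretches occur in another gene. Rab6a, the GTPase of transport within and out of the Golgi, overlapped between the ages (14.4 to 39.1 FPKM in adults, 24.5 to 34.2 FPKM at E16.5). Rab1b, the second ER-to-Golgi form, also overlapped, at 59.4, 35.6 and 56.8 FPKM in adults and 61.9, 38.0 and 45.0 FPKM at E16.5 (change 0.06 ± 0.36). Rab6b, a form of Rab6 best known from brain, lay wholly below at up to 0.746 FPKM in adults and 1.27 to 5.34 FPKM at E16.5. The rest of the group overlapped, namely Rab18, of lipid droplets and the ER, Rab33b, of the Golgi and autophagy, Rab43, and Rab19, which was listed at 0 in every adult sample and at 2.64, 17.3 and 0 FPKM at E16.5. Of these Rab33b had the highest single value, 34.4 FPKM in adult replicate 3.

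The 9 Rab genes of early endosomes had a median change of 0.23, or −0.59 under scaling to the same sum of FPKM. It exceeded the median of all genes tested by 1.09, and by 0.89 to 1.14 over the scalings. None passed the test, where 2.12% of all genes tested rose and 8.83% fell. None lay wholly below in adults, against 31.0% of all genes tested, and 1 lay wholly above (11.1%, against 7.39%). Rab22a, which works between early and recycling endosomes, measured 10.6, 9.32 and 27.6 FPKM in adults and 5.18, 3.89 and 3.26 FPKM at E16.5. Every adult sample was above every E16.5 sample, with replicate 3 highest, and the change of 1.58 ± 0.62 did not pass (limma adjusted p = 0.133, and 0.064 to 0.308 over the alternatives). Rab20, linked to phagosome maturation, had the highest adult mean of all members. It measured 28.0, 56.8 and 244.9 FPKM in adults and 15.8, 25.9 and 62.9 FPKM at E16.5. A single adult library carried most of that mean of 110 ± 118 FPKM (SD, n = 3), and 22.9% of the gene's 50-base stretches are shared with a noncoding RNA on the opposite strand. Rab21, which sorts integrins, was steadier at 79.7, 87.7 and 48.7 FPKM in adults and 42.4, 54.0 and 72.1 FPKM at E16.5.

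Rab5 proteins define the early endosome and fuse incoming vesicles with it. Rab5c was the most abundant form in all 6 samples, at 60.0, 72.8 and 126 FPKM in adults and 73.4, 80.6 and 57.2 FPKM at E16.5. Rab5a measured 13.6, 24.7 and 13.9 FPKM in adults and 46.4, 36.9 and 23.6 FPKM at E16.5. Rab5b was between 6.41 and 13.7 FPKM throughout. None of the 3 passed the test, and Rab5c took 68.7%, 70.1% and 83.2% of their sum in adults and 58.0%, 63.2% and 64.6% at E16.5. The shares did not overlap, with an adult mean 12.1 percentage points higher at the smallest p of the exact permutation test (p = 0.1; 0.333 adjusted), and 7.48 points higher without adult replicate 3. Rab4a and Rab4b, which return receptors quickly to the surface, were listed at 0 in adult replicate 3. They ranged from 1.69 to 10.1 FPKM in the other adult samples and from 1.71 to 20.3 FPKM at E16.5. Other genes hold 58.1% of the 50-base stretches of Rab4b. Rab31, which works between the Golgi and endosomes, also overlapped, at up to 7.78 FPKM in adults and 7.76 FPKM at E16.5.

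Among the 10 tested Rab genes of recycling and polarized delivery, 1 fell (Rab15) and none rose, and the adult samples lay wholly below in 7 (70.0%, against 31.0% of all genes tested). Their median change was −1.12. Rab11a, the main GTPase of recycling endosomes, measured 31.7, 22.7 and 27.9 FPKM in adults and 82.3, 51.4 and 40.0 FPKM at E16.5 (change −0.9991 ± 0.38, limma adjusted p = 0.127). Rab11b, its close relative, measured 10.5, 11.9 and 22.2 FPKM in adults and 10.9, 8.85 and 12.5 FPKM at E16.5. Other genes hold 13.6% of the 50-base stretches of Rab11b. The a form was without overlap and the b form was not, and the share of Rab11b in their sum was 24.9%, 34.5% and 44.3% in adults and 11.7%, 14.7% and 23.7% at E16.5. These shares did not overlap either, with an adult mean 17.9 percentage points higher (exact permutation p = 0.1, the smallest it allows; 0.333 adjusted). Rab14, which moves cargo between Golgi and endosomes, was the fifth most abundant member at E16.5 with 91.9, 94.4 and 78.5 FPKM and measured 58.1, 49.9 and 35.8 FPKM in adults (change −0.89 ± 0.31, limma adjusted p = 0.101).

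Rab8 proteins carry vesicles from the Golgi to the apical membrane and to the cilium. Rab8b measured 1.79, 7.61 and 7.46 FPKM in adults and 23.8, 25.1 and 24.9 FPKM at E16.5. All adult samples were far below a narrow E16.5 range, and the change of −2.12 ± 0.59 just missed the threshold (limma adjusted p = 0.060), with 4 of 17 alternatives under it. Rab8a measured 24.97, 22.4 and 3.25 FPKM in adults and 30.0, 34.2 and 30.6 FPKM at E16.5, again without overlap (change −1.25 ± 0.72, adjusted p = 0.267 with limma). The share of Rab8b in the pair overlapped between the ages. Rab10, which serves basolateral delivery, had overlapping levels of 19.7 to 40.4 FPKM in adults and 16.3 to 27.7 FPKM at E16.5. Rab12, which sends the transferrin receptor to lysosomes, was without overlap at 10.3, 25.01 and 0 FPKM in adults and 45.2, 49.4 and 36.8 FPKM at E16.5 (change −2.74 ± 1.10, limma adjusted p = 0.139). Rab13, known from tight junctions, also lay wholly below, at up to 2.74 FPKM in adults and 3.76 to 11.6 FPKM at E16.5. Rab35, of fast recycling, overlapped at 12.8 to 41.5 FPKM in adults and 12.7 to 41.3 FPKM at E16.5.

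Among 7 tested Rab genes of late endosomes and lysosomes Rab29 fell (14.3%, against 8.83% of all genes tested) and none rose (against 2.12%). The adult samples lay wholly below in 1 (14.3%, against 31.0%), and 6 of the 7 overlapped between the ages. Rab7, the GTPase of late endosome and lysosome fusion, was among the 5 most abundant members at both ages. It measured 53.4, 95.5 and 95.1 FPKM in adults and 129, 94.96 and 84.45 FPKM at E16.5, with a change of −0.36 ± 0.34 (limma adjusted p = 0.489). Rab9, which returns receptors from late endosomes to the Golgi, measured 0, 22.4 and 10.2 FPKM in adults and 16.5, 23.2 and 33.6 FPKM at E16.5. Rab34, needed for cilium formation in many cells, was listed at 0, 17.3 and 0 FPKM in adults and at 18.7, 28.9 and 17.2 FPKM at E16.5 (change −3.07 ± 1.16, limma adjusted p = 0.122). Of these, Rab7 had its adult mean of 81.3 FPKM with no sample near 0, and Rab34 had a value above 0 in the deepest adult library alone. Rab24, linked to autophagy, Rab36 and Rab39b had no value above 19.2 FPKM in any sample. All 4 tested Rab genes of the group for cilia and other sites overlapped. Of all genes tested, 31.0% lay wholly below and 7.39% wholly above in adults. Rab23 of this group, a regulator of Hedgehog signalling, measured up to 5.88 FPKM in adults and 4.87 to 6.69 FPKM at E16.5. Rab28 was the steadiest of the 4, at 22.9 to 28.7 FPKM in adults and 28.7 to 37.1 FPKM at E16.5. Rab40b and Rab40c, which work with ubiquitin ligases, were listed at 0 in adult replicate 3.

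Syntaxins anchor the fusion complex on the target membrane. All 13 tested syntaxins had a change below 0, also under every alternative that tested them, except Stx17 under quantile normalization and Stx5a without adult replicate 2, with a median of −1.48, which is 0.62 below the median of all genes and 0.61 to 0.78 below it under the scalings tried. In 7 of them (53.8%) the adult samples lay wholly below, against 31.0% of all genes tested. Of the 13, 2 were at 0 in every adult sample, so that they entered the test through E16.5 alone and could only fall. Both count among the 7 wholly below, and neither was tested without E16.5 replicate 1. None of the 13 passed limma's adjusted test, where 8.83% of all genes tested fell. At an unadjusted p under 0.05, 5 were lower, where 25.9% of all genes tested were. Summed over the class, syntaxins came to 81.8, 133 and 172 FPKM in adults and 275, 270 and 263 FPKM at E16.5, so that the E16.5 sums were close together and the adult sums were not. Changes below 0 were found in 72.8% of all genes tested.

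Stx18, which takes vesicles back into the ER, measured 1.05, 14.0 and 19.1 FPKM in adults and 44.4, 44.1 and 42.1 FPKM at E16.5. Adult replicate 1 was the lowest and no adult sample reached the E16.5 range, yet the change of −2.39 ± 0.84 did not pass (limma adjusted p = 0.105). Other genes hold 29.6% of its 50-base stretches. Stx7, a late endosome syntaxin, measured 10.3, 19.0 and 13.5 FPKM in adults and 41.4, 30.3 and 47.7 FPKM at E16.5. Its change of −1.43 ± 0.41 was close to the threshold (limma adjusted p = 0.064), and 2 of 17 alternatives passed it. Stx8, which fuses late endosomes in complex with Stx7, was listed at 0, 2.14 and 0 FPKM in adults and at 7.02, 6.62 and 2.35 FPKM at E16.5. Stx6, of the trans-Golgi network, measured 6.22, 2.60 and 11.4 FPKM in adults and 14.6, 18.2 and 22.3 FPKM at E16.5. All 4 of these syntaxins lay wholly below their E16.5 values in adults. Stx12, the recycling endosome syntaxin, and Stx5a, of the ER and Golgi, overlapped, as did Stx16 of the trans-Golgi network at up to 6.54 FPKM, and Stx5a spread from 2.80 to 59.8 FPKM among adults.

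Plasma membrane syntaxins of epithelia are Stx3 on the apical side and Stx4a on the basolateral side, with Stx2 on either. Stx3 measured 4.62, 5.07 and 1.38 FPKM in adults and 22.9, 18.8 and 4.51 FPKM at E16.5. Stx4a measured 0.221, 40.2 and 20.6 FPKM in adults and 25.9, 51.2 and 41.0 FPKM at E16.5. Stx2 was at 1.37, 0.866 and 3.89 FPKM in adults and 13.4, 18.7 and 5.78 FPKM at E16.5. Of the 3 only Stx2 was free of overlap, and none passed the limma test (adjusted p = 0.093 for Stx2, 0.188 for Stx3 and 0.310 for Stx4a). The share of Stx3 in their sum ranged from 5.34% to 74.4% in adults and from 8.79% to 36.9% at E16.5, and thus overlapped.

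The SNAP25 family supplies the remaining helices of the complex. Snap23, its general member outside neurons, was abundant at both ages, at 33.8, 46.0 and 123 FPKM in adults and 42.1, 70.8 and 55.1 FPKM at E16.5. Snap47, found on internal membranes, was also abundant and overlapped, from 49.2 to 71.5 FPKM in adults and from 61.9 to 97.6 FPKM at E16.5. Snap29, which fuses autophagosomes with lysosomes together with Stx17, measured 16.7, 14.7 and 21.9 FPKM in adults and 10.2, 11.3 and 8.42 FPKM at E16.5. It was the other member, beside Rab22a, whose adult samples lay wholly above. Its change of 0.76 ± 0.45 did not pass (limma adjusted p = 0.275), and under scaling to the same sum of FPKM it was −0.01. Stx17, by contrast, measured 1.74, 8.94 and 0.585 FPKM in adults and 5.94, 11.7 and 9.18 FPKM at E16.5, with overlap.

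**Figure D4:**
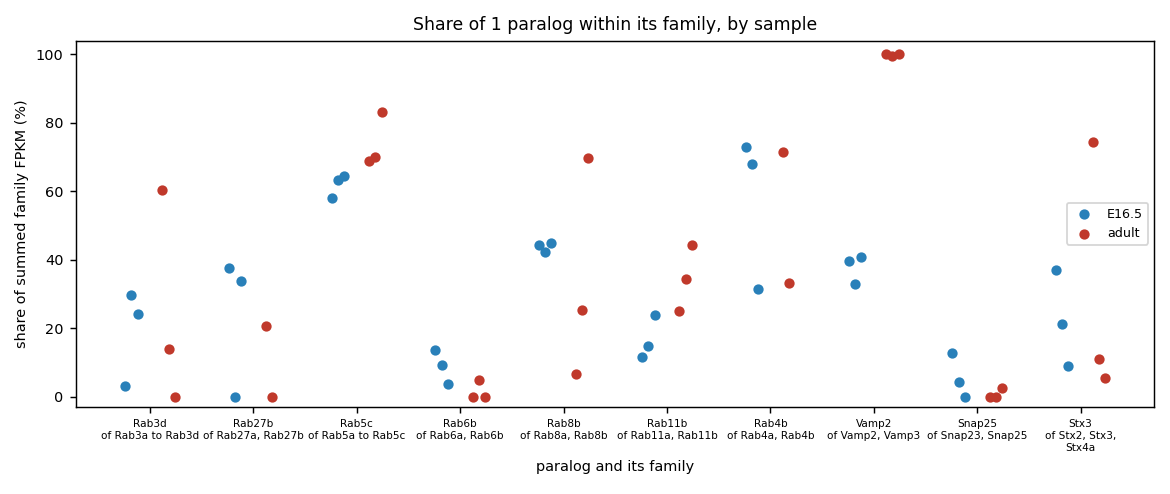
Share of 1 paralog in the summed FPKM of its family, in percent, for each sample of both ages. The shares of Vamp2, Rab5c and Rab11b are higher in every adult sample than in any E16.5 sample, and those of the 7 other families overlap.

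The other 7 families of paralogs gave overlapping shares, with exact permutation p from 0.2 to 0.9. Among the Rab3 and Rab27 genes, which dock secretory vesicles before regulated release, levels were low in most samples. Rab3d, the form best known from exocrine glands, measured 9.75, 3.72 and 0 FPKM in adults and 1.70, 7.88 and 3.94 FPKM at E16.5. Rab27a measured 11.2, 5.55 and 0 FPKM in adults and 0.476, 1.18 and 1.93 FPKM at E16.5, with a change of 1.03 ± 0.99 (limma adjusted p = 0.495). Adult replicate 3 had neither Rab27 gene above 0, so its share of Rab27b, whose mean was under 1 FPKM at both ages, could not be formed.

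Several members are best known from neurons, and some of them were highest in the E16.5 library that also had the most of the neuron markers. The 9 markers of neurons and neural progenitors summed to 93.9, 2.501 and 4.70 FPKM at E16.5 and to 2.25, 4.53 and 0 FPKM in adults, and 5 of them were at 0 in every adult sample. Rab3a, of synaptic vesicles, measured 45.5, 15.3 and 12.3 FPKM at E16.5 and 6.37, 23.04 and 2.10 FPKM in adults. Stx1a, a syntaxin of the presynaptic membrane, measured 4.56, 0.507 and 1.31 FPKM at E16.5. It was listed at 0 in every adult sample, as were Rab3c (5.53, 0.228 and 0.024 FPKM at E16.5) and Rab3b (3.65, 3.06 and 0 FPKM). In Rab3a, Rab3c and Stx1a, as in the neuron markers, E16.5 replicate 1 stood far above the others of its age, which Rab3b, Vamp2 and Vamp1 (0.878, 1.44 and 0 FPKM at E16.5) did not show; Stx1a is singled out after its values were seen. Snap25, the neuronal member of its family, was at 6.15, 3.16 and 0 FPKM at E16.5 and at 0, 0 and 3.24 FPKM in adults. Without E16.5 replicate 1 the change of Rab3a went from −1.40 to −0.85 (limma adjusted p = 0.297 and 0.631) and that of Snap25 from −0.94 to −0.34, and Rab3b and Stx1a no longer had a mean above 1 FPKM. The part of other cells in these values was not tested.

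**Figure D5:**
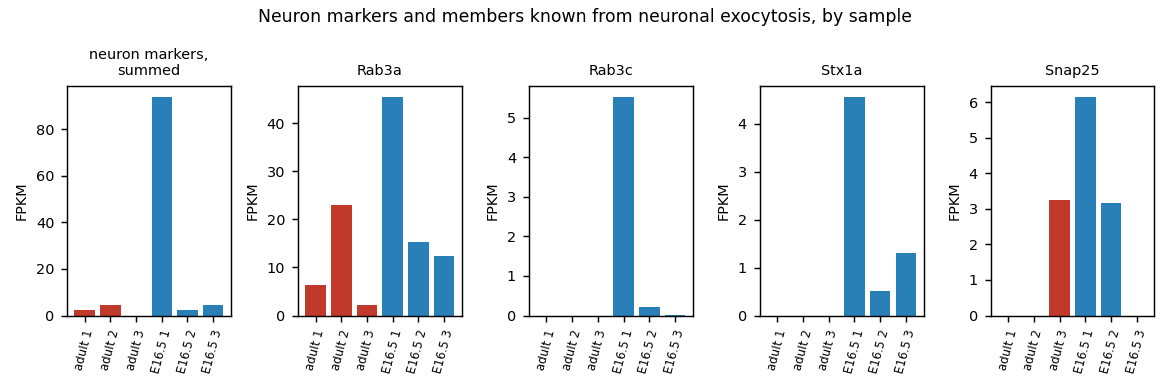
FPKM of members best known from neurons in each sample, beside the summed FPKM of 9 markers of neurons and neural progenitors. The marker sum is 93.9 in E16.5 replicate 1 and at most 4.70 in every other sample, and Stx1a and Rab3c are above 0 at E16.5 alone.

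Zeros were more frequent in the shallower adult libraries. Of the 66 tested members, 14, 5 and 22 were at 0 in adult replicates 1, 2 and 3, against 0, 0 and 3 in the E16.5 replicates. At the E16.5 mean, 9, 4 and 16 of them would have given 10 reads or more in those adult libraries. Being at 0 in at least 1 adult sample applied to 37.9% of tested members and to 42.5% of all genes tested.

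The proteins that act on Rab GTPases and SNAREs were listed as 202 partner genes, of which 176 were tested. Of these 2 rose (1.14%) and 7 fell (3.98%), below the 2.12% and 8.83% of all genes tested, and their median change was −0.45, or 0.19 under quantile normalization. None of the 9 passed without E16.5 replicate 1, 2 or 3 (4 to 6 higher and 11 to 16 lower at an unadjusted p under 0.05). Myo5c, a myosin motor of secretory vesicles in epithelia, measured 16.998, 18.5 and 27.5 FPKM in adults and 3.20, 1.68 and 1.95 FPKM at E16.5 (change 2.75 ± 0.55, limma adjusted p = 0.027). Sytl2, an effector of Rab27 that attaches vesicles to the plasma membrane, measured 19.0, 18.6 and 52.3 FPKM in adults and 1.27, 6.17 and 1.59 FPKM at E16.5 (change 2.99 ± 0.71, limma adjusted p = 0.040). Both effectors were thus above every E16.5 value in all adult samples. Myo5b, the motor that binds Rab11 and Rab8, fell by 1.34 ± 0.31 (limma adjusted p = 0.036), from 129, 145 and 228 FPKM at E16.5 to 56.9, 64.7 and 69.4 FPKM in adults. Its call was lost under median-ratio scaling (adjusted p = 0.081) and quantile normalization (adjusted p = 0.124).

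The other partners that fell include 2 SNAREs that act with Stx18 at the ER. Use1 measured 0, 5.72 and 0 FPKM in adults and 39.8, 45.2 and 82.2 FPKM at E16.5 (change −4.84 ± 0.85, limma adjusted p = 0.018). Bnip1 measured 0, 3.32 and 0 FPKM in adults and 17.9, 33.7 and 12.7 FPKM at E16.5 (change −3.67 ± 0.81, limma adjusted p = 0.033). Sec22b, the vesicle SNARE of the same complex and named after its values were seen, overlapped, at 31.2, 16.9 and 6.88 FPKM in adults and 26.4, 13.2 and 16.02 FPKM at E16.5 (change −0.18 ± 0.61). Among regulators of release, Cadps2, which primes dense-core vesicles, was listed at 0 in every adult sample and at 12.2, 7.85 and 8.49 FPKM at E16.5 (limma adjusted p = 0.018). Rph3al, an effector of Rab3 and Rab27, measured 11.3, 3.16 and 3.949 FPKM in adults and 38.4, 42.6 and 37.0 FPKM at E16.5 (change −2.67 ± 0.54, limma adjusted p = 0.026). Every one of these called partners was without overlap between the ages. The remaining 2 were Dennd6a, an exchange factor for Rab14, which fell by 3.24 ± 0.61 (limma adjusted p = 0.022), and Tbc1d31, a centrosomal protein listed among the Rab GAPs, which fell by 3.21 ± 0.77 (limma adjusted p = 0.041). Under quantile normalization the calls of Rph3al, Dennd6a and Tbc1d31 were lost (adjusted p = 0.065, 0.110 and 0.065), and that of Tbc1d31 also under median-ratio scaling (adjusted p = 0.054). Those of Bnip1, Sytl2 and Tbc1d31 were lost with no filter and with a pseudocount of 0.1 or 0.01. Of 17 alternatives, the calls held in 12 for Use1 and Cadps2 and in 11 for Myo5c and Rph3al. They held in 9 for Bnip1 and Dennd6a, 8 for Myo5b, 7 for Sytl2 and 6 for Tbc1d31.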

How the data were processed

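Members and lists were chosen with earlier results of these data known. TRAP-seq of 3 adult and 3 E16.5 ChP samples, grouped by their labels, was used. The authors aligned 50-base single-end reads to mm10 with STAR (2.4.0 in the submitters' processing notes), calculated the deposited FPKM with Cuffquant of Cufflinks, and counted reads for their own test; those counts were not analysed here. The annotation behind the FPKM is not given in the sources used here. Values were tested as log2(FPKM + 1), for genes with a mean above 1 FPKM, in limma 3.58.1 (R 4.3.3, intensity trend, no covariates, two-sided). Depth was estimated from the steps of low values in 2523 single-transcript genes: 40.8% to 53.6% of low values lay within 0.1 read of a whole number, where chance gives 20%. Reads carry no molecular identifiers. Gene models were GENCODE M21, matched for 84 of 85 members; 19 of the 66 tested members overlap an exon on the opposite strand and 11 share over 10% of their 50-base stretches. Genes named were all called members, the 5 highest at each age, the paralog families, the extreme member without overlap in each role, members at 0 throughout and called partners, and others were named after their values were seen. Of the members, 1 is counted but not reported here. Alternatives changed scaling, pseudocount, filter, trend, replicates and threshold.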

Additional observations from a re-analysis of the deposited data

How the results depend on the processing

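Members called lower numbered 4, and 2 under median-ratio scaling, quantile normalization or no filter on low values, 1 at an adjusted p of 0.01, and 19 under scaling to the same sum of FPKM; leaving out 1 sample gave 0 (without E16.5 replicate 2) to 9 (without adult replicate 2). No member was called higher in any of 17 alternatives (0 to 3 at an unadjusted p under 0.05 in limma). Partners called higher numbered 2, and 1 with no filter or a pseudocount of 0.01 or 0.1, 6 under quantile normalization, 0 at 0.01, and 0 to 2 without 1 sample. Partners called lower numbered 7, and 3 under quantile normalization, 35 under the same sum, 0 at 0.01, and 0 to 13 without 1 sample. All genes tested gave 246 higher and 1024 lower calls, 348 and 660 under median-ratio scaling, 119 and 3238 under the same sum, 195 and 1334 under the same sum without Mir6236, and 464 and 453 under quantile normalization. With a replicate block 1 member was called lower, 0 partners higher and 2 lower; same-numbered samples correlated at 0.000895 to 0.0439 in their deviations and 4 of 6 samples correlated best with their own number, so that the numbers were not taken to pair samples. Among values of single genes over the alternatives, 613 kept their direction and side of the threshold, 99 lost the call, 15 gained it and 18 turned sign, all of these without a call. Under the same sum of FPKM the changes of Rab11b, Rab21, Rab5b, Rab5c, Snap23 and Snap29 became −0.39, −0.47, −0.47, −0.59, −0.74 and −0.00797, and without Mir6236 that of Snap23 became −0.0837. Under quantile normalization those of Rab3d, Rab7 and Vamp2 became 0.26, 0.0874 and 0.28, under median-ratio scaling that of Vamp2 0.20, and with a pseudocount of 0.01 that of Rab27a −0.28. Leaving out 1 sample gave changes from −1.18 to 0.54 for Rab3d, −0.0750 to 0.45 for Rab5c, −0.46 to 0.46 for Snap23 and −0.65 to 0.43 for Vamp2. It gave differences in share from −12.0 to 18.2 percentage points for Rab3d, −27.8 to 3.72 for Rab8b, −24.2 to 14.0 for Rab4b and −14.1 to 20.4 for Stx3. The cause of these moves was not tested. In the shallow adult libraries low members are limited to a few reads.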
